A study of Homo sapiens with 4 samples.

Results

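RN7SK, RN7SL1, RN7SL2, RMRP and RPPH1 are 5 genes for abundant non-coding RNAs that are transcribed by RNA polymerase III. Their positions were taken by symbol from the GENCODE version 44 annotation of GRCh38, where they are 5 of 62700 annotated genes, and a RAD21 peak was assigned to a gene when its summit lay within the gene or up to 5 kb from it. By this rule 6 of the 56853 RAD21 peaks of wild-type HCT116 cells belonged to the 5 genes. RAD21 is a core subunit of cohesin, the ring complex that holds sister chromatids together and extrudes chromatin loops, and HCT116 cells derive from a human colorectal carcinoma. The experiment had 4 libraries without replicates, which were RAD21 ChIP of untreated wild-type HCT116 cells, RAD21 ChIP of untreated HCT116_RAD21_AID cells, RAD21 ChIP of HCT116_RAD21_AID cells kept for 6 h with 500 μM each of the auxins indole-3-acetic acid (IAA) and alpha-naphthaleneacetic acid (alpha-NAA), and an Input of these auxin-treated cells. HCT116_RAD21_AID is a single clone in which RAD21 carries the mAID degron and the OsTIR1 ubiquitin ligase is expressed. All values below were taken from the peaks of the wild-type ChIP, and 3 of the 4 libraries were not analysed here. As 1 library was used, no spread between replicates could be set beside any value, and no test between conditions was made.

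RNA polymerase III makes short, structured RNAs, and its genes fall into classes by where their promoters lie. RN7SK, RMRP and RPPH1 have promoters upstream of the transcribed part, with a TATA box, a proximal sequence element and a distal element that can hold an octamer, an arrangement that resembles the promoters of RNA polymerase II small nuclear RNA genes. RN7SL1 and RN7SL2 combine elements within the transcribed part with an upstream element. 7SK RNA holds the elongation factor P-TEFb in an inactive complex, 7SL RNA is the scaffold of the signal recognition particle that directs proteins to the endoplasmic reticulum, RMRP is the RNA of RNase MRP, which acts in ribosomal RNA processing, and RPPH1 is the RNA of RNase P, which trims the leader of precursor tRNAs. 7SL RNA is also the ancestor of the Alu repeats, and both 7SL and 7SK have many pseudogenes in the human genome, so that short reads from these genes may fit several places.

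RAD21 peaks were found near 4 of the 5 genes, and no summit lay on a gene itself. RN7SK and RN7SL2 had 2 peaks each, RN7SL1 and RMRP had 1 each, and RPPH1 had 0. Of the 6 summits, 4 were upstream of the gene and 2 downstream of its end. The share of genes with a summit under the same rule was 48.7% over all annotated genes and 23.9% over the 14274 genes of at most 500 bp, the length class of the 5 genes. A count of 4 among 5 genes, picked by name, is only a description beside these shares. Summits within the transcribed part were rare among all short genes as well, at 0.855% of them, so that 0 of 5 is close to what this share would give.

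**Figure D1:**
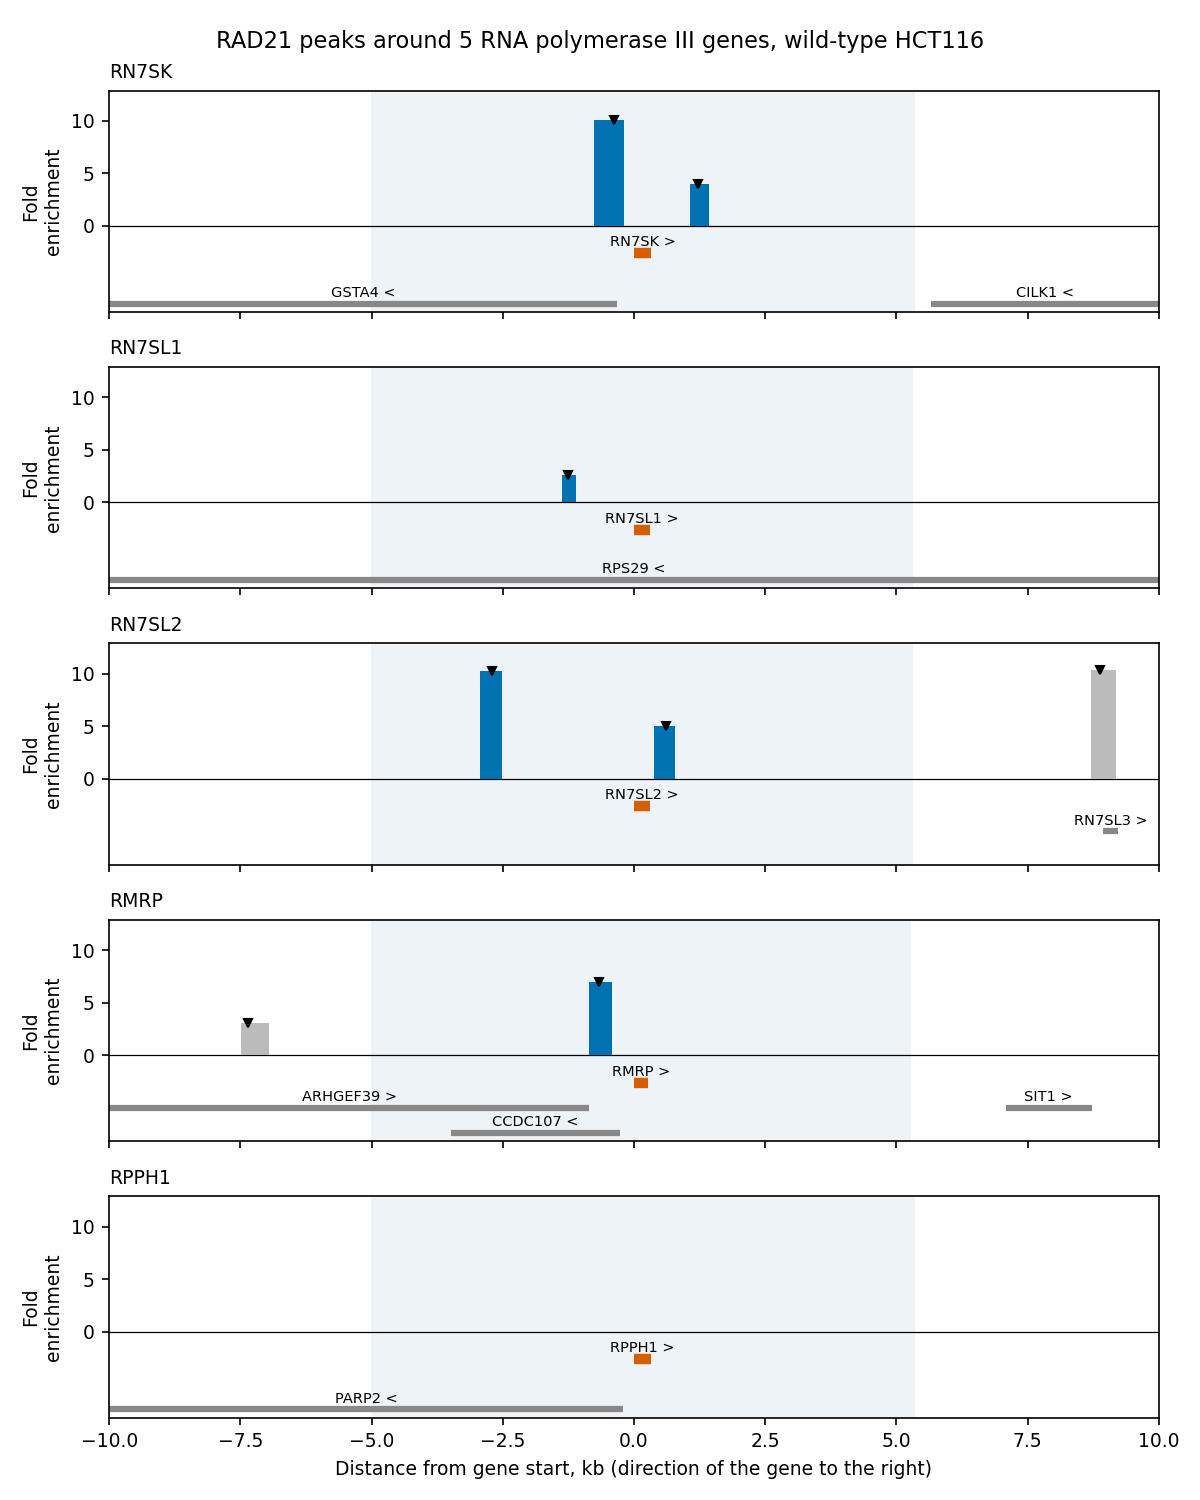
RAD21 peaks around the 5 genes in wild-type HCT116 cells. The horizontal axis gives the distance from the gene start in kb, with the direction of the gene to the right, and the vertical axis the fold enrichment. Blue bars are the 6 assigned peaks, grey bars other peaks, triangles their summits, the orange box the gene, grey lines protein-coding genes and RN7SL3 (an arrowhead gives the direction of each relative to the gene), and the pale band the window of 5 kb. No bar covers an orange box, and the panel of RPPH1 holds no bar.

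The sequences around 5 of the 6 summits are shown because they can be searched for repeats and set beside the binding motif of CTCF, the protein at which extruding cohesin is known to stop. Each line gives 101 bases of the GRCh38 reference centred on the summit, 5′ to 3′ on the strand of the named gene. Capitals mark the bases closest to the CTCF consensus sequence, on either strand. Where several forms were equally close, as in the upstream windows of RN7SL2 and RMRP, the form nearest to the summit is marked.
RN7SK upstream (chr6:52995183-52995283, plus strand): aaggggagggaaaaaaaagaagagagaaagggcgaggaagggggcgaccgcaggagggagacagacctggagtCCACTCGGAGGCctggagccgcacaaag
RN7SK downstream (chr6:52996787-52996887, plus strand): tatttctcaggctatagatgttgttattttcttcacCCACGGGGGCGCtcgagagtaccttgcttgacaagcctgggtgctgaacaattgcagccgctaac
RN7SL2 downstream (chr14:49862195-49862295, minus strand): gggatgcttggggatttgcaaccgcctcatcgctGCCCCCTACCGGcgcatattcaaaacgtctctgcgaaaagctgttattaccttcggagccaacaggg
RN7SL2 upstream (chr14:49865512-49865612, minus strand): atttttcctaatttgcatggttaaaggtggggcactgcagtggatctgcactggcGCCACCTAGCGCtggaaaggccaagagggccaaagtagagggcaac
RMRP upstream (chr9:35658642-35658742, minus strand): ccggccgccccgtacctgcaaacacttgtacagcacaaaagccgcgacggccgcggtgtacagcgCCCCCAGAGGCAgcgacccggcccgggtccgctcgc

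An exact match to the CTCF consensus was present in 0 of the 6 summit windows, while 11.5% of all summits had one. The downstream peak of RN7SL2 came closest, with 1 mismatch at 5 to 16 bp from the summit. The upstream peaks of RN7SK and RN7SL2 had forms with 2 mismatches, the downstream peak of RN7SK and the RMRP peak forms with 3, and the RN7SL1 peak a form with 4. The share of all summits with a form of at most 1, 2, 3 and 4 mismatches was 38.5%, 64.7%, 87.4% and 98.5%. In windows of the same length placed 5 kb beyond the summits, these shares were 0.78%, 6.93%, 36.7% and 83.3%. The form at RN7SL2 downstream was thus of a kind held by 0.78% of the displaced windows, and the forms with 3 or 4 mismatches were of a kind common in the displaced windows. The match describes letters only, and occupancy by CTCF was not measured here.

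RN7SK lies on the plus strand of chromosome 6, from 52995621 to 52995948, and its transcribed part of 328 bp (ENSG00000283293.1) is annotated as a small nuclear RNA. A second record of the annotation, named 7SK, overlaps it. Its stronger peak extended from 52994869 to 52995436, 568 bp wide, and its summit lay 388 bp before the gene start. At this summit 83 ChIP fragments were counted over a recovered background of 7.36, a fold enrichment of 10.0. The exact Poisson interval (95%) of the fragment number was 66.1 to 103, which gives 8.02 to 12.4 for the fold enrichment when the background is taken as known; these intervals cover counting error only. The −log10 q was 53.9, and the fold enrichment exceeded that of 72.9% of all peaks. The background is the fragment number that MACS2 expected from the Input for the summit, and how wide a stretch of Input it drew on was not recovered. Its lowest possible value in the list, the genome-wide floor, was 5.90.

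The upstream peak of RN7SK was also a peak at the start of a protein-coding gene. GSTA4, which encodes a glutathione S-transferase, starts 317 bp from the start of RN7SK and runs in the opposite direction, and the summit lay 71 bp inside it, in an intron. Between the peak and RN7SK lay 184 bases, so that the peak reached into the 250 bases before the gene. It did not reach −33 to −28, where the letters TATAAA were found on the opposite strand, read as TTTATA on that of RN7SK. The second peak of RN7SK, from 52996698 to 52997055, lay beyond the other end of the gene. Its summit was 1216 bp from the gene start and 889 bp past the gene end, in intergenic sequence, with 41 fragments over a background of 9.47. The fold enrichment of 4.01 (2.91 to 5.41) was lower than at the upstream summit, and the intervals of both did not overlap. The list held 2 peaks within 50 kb of the gene, the same that were assigned to it, and the next summit was 65938 bp away in an intron of FBXO9, with a fold enrichment of 27.0.

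RMRP lies on the minus strand of chromosome 9, from 35657754 to 35658017, and is 264 bp long (ENSG00000277027.1). Its peak, from 35658435 to 35658875, had a summit 675 bp before the gene start with 60 fragments over a background of 7.79. The fold enrichment was 6.94 (5.33 to 8.90), above 59.3% of all peaks, and the −log10 q was 29.9. The arrangement resembled that at RN7SK, since a protein-coding gene starts close by in the opposite direction. This is CCDC107, whose start is 273 bp from the RMRP start, and the summit lay 402 bp inside it, in a coding exon. The peak thus covered none of the 417 bases closest to RMRP. The closest peak outside the window had its summit 7359 bp before RMRP, in an intron of ARHGEF39, where 24 fragments gave a fold enrichment of 3.07. Among the 5 genes this was the nearest summit left out by the limit of 5 kb, and the farthest one kept was 2713 bp from RN7SL2. The highest peak within 50 kb, with a fold enrichment of 14.9, was 10804 bp past the end of RMRP.

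RPPH1, on the minus strand of chromosome 14 from 20343075 to 20343407 (ENSG00000277209.1), had no RAD21 summit within 5 kb. PARP2, which encodes a poly(ADP-ribose) polymerase of DNA repair, starts 208 bp away in the opposite direction, and no summit lay within 1 kb of its start either. The nearest peak, from 20327327 to 20327647, was downstream of RPPH1 with its summit 15921 bp from the gene start, in an intron of CCNB1IP1. It had 52 fragments and a fold enrichment of 6.67. Within 50 kb RPPH1 had 2 peaks, as many as RN7SK and as the median short gene (2, quartiles 1 and 4). A weak signal at RPPH1 could have escaped the list. Among peaks at the background floor, the fewest fragments at a summit were 15, a fold enrichment of 2.32. Over a higher background more fragments but a lower fold enrichment were enough, and the background at RPPH1 itself is not known, so that no limit could be set for this gene.

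RN7SK, RMRP and RPPH1 therefore share a protein-coding start on the opposite strand within 317 bp, and the upstream summits of RN7SK and RMRP lay inside the protein-coding gene. Starts were taken from whole gene records, so starts of shorter transcripts inside a record were not counted for any of the 5 genes. The RN7SK peak itself spanned the GSTA4 start, while the RMRP peak lay wholly within CCDC107. Summits within 1 kb of the start were present at GSTA4 and CCDC107 and absent at PARP2, beside 32.3% of all protein-coding genes with such a summit. Of the 235 short genes with an opposite protein-coding start up to 1 kb before their own, 50.6% had a summit within the gene or 5 kb of it. Whether the ChIP signal at GSTA4 and CCDC107 relates to transcription by RNA polymerase II, by RNA polymerase III or by neither was not tested.

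RN7SL1 and RN7SL2 lie on chromosome 14 with their starts 276269 bp apart, RN7SL1 (ENSG00000276168.1) on the plus strand from 49586580 to 49586878 and RN7SL2 (ENSG00000274012.1) on the minus strand from 49862550 to 49862849. In a global alignment of both genes 295 of 300 columns were identical, and 1 of the 5 that differed was a gap. This near identity bears on what short reads can resolve.

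The peaks around these nearly identical genes were unlike. RN7SL1 had a single weak peak, from 49585213 to 49585475, with its summit 1263 bp before the gene start. It held 21 fragments (13.0 to 32.1) over a background of 7.60, a fold enrichment of 2.56 (1.63 to 3.85), and only 7.39% of all peaks had a lower one. The −log10 q of 2.66 was the lowest of the 6 peaks. The summit lay in an exon of RPS29, a ribosomal protein gene that spans RN7SL1 in the opposite direction. The next closest peak was at the common region of LRR1 and RPS29, with its summit 12024 bp past the end of RN7SL1 and a fold enrichment of 2.10.

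RN7SL2 lies within a long non-coding RNA gene of the same direction (ENSG00000282885). Its upstream peak, from 49865362 to 49865791, was the highest of the 6, with 83 fragments over a background of 7.15 and a fold enrichment of 10.3 (8.23 to 12.7). The summit lay 2713 bp before the gene start, in an intron of the long non-coding RNA gene, and was the farthest of the 6 from its gene. The downstream peak, from 49862068 to 49862473, was the closest, with 76 bases between its edge and the gene end. Its summit was 604 bp from the gene start and 305 bp past the gene end, in an exon of the long non-coding RNA gene, and a second such gene (ENSG00000278002) starts on the opposite strand within 1 kb of it. There 56 fragments were counted over a background of 10.3, a fold enrichment of 5.04 (3.83 to 6.52). As at RN7SK, the intervals of the upstream and the downstream peak did not overlap.

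Another 7SL gene, RN7SL3, was not among the 5 but lies close to RN7SL2, from 49853616 to 49853914 on the same strand. The first peak beyond the window of RN7SL2, from 49853659 to 49854141, had its summit 45 bp before the RN7SL3 start and overlapped that gene. It held 88 fragments, the fold enrichment was 10.4 and the −log10 q reached 58.2. Exact copies of the sequence at this summit were not counted, so how far its reads could be placed elsewhere is not known. RN7SL3 shared 288 of 300 aligned columns with RN7SL2 and 292 of 299 with RN7SL1. The closest summit was thus 45 bp before the start of RN7SL3 and 1263 bp before that of RN7SL1, but 604 bp after that of RN7SL2.

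By fold enrichment the 6 peaks ranked as RN7SL2 upstream (10.3), RN7SK upstream (10.0), RMRP (6.94), RN7SL2 downstream (5.04), RN7SK downstream (4.01) and RN7SL1 (2.56). The intervals of neighbours in this order overlapped, which does not show that their values were equal, and the differences between neighbours were not tested. The median of the 6 was 5.99, beside 5.58 for all peaks, and their widths of 263 to 568 bp lay around the median of 446 bp. The bases around the summits held 49.5% to 72.3% G and C, lowest at RN7SK downstream and highest at RMRP, beside 58.2% to 64.6% within the 5 genes.

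Repeated sequence was judged by exact copies of every 100-mer, on both strands of GRCh38, with 194 sequences searched and alternate loci left out. RMRP and RPPH1 were unique, with 100% of their 165 and 234 100-mers occurring once. Of the 229 100-mers of RN7SK, 48.0% occurred once, and the largest number of copies was 3. Of those of RN7SL1 and RN7SL2, 25.5% and 17.9% occurred once, with up to 4 copies. With 36-mers the shares fell to 16.4% for RN7SK, 1.14% for RN7SL1 and 7.17% for RN7SL2, while RMRP and RPPH1 kept 100%. The genes without a summit on them thus include 2 that are unique at every length tried, and 3 that hold 100-mers with several copies. The authors sequenced paired reads of 100 bp and aligned only concordant pairs. A pair with a mate outside the gene could still be placed, so these shares do not give the part of pairs that was ambiguous. Whether the placement of reads from repeated sequence removed a signal from the 7SL and 7SK genes was not tested.

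The flanks were more unique than RN7SK, RN7SL1 and RN7SL2 at every length tried, but less so than RMRP and RPPH1 at 50-mers and 36-mers. In the 5 kb to either side of each gene, 9802 100-mers were counted, of which all occurred once for RN7SK, RN7SL1, RMRP and RPPH1 and 9801 for RN7SL2. With 36-mers the share that occurred once in the flanks was 92.2% for RN7SK, 83.5% for RN7SL1, 84.9% for RN7SL2, 87.7% for RMRP and 85.3% for RPPH1, with up to 97991 copies. The 100-mer at each of the 6 summits had 1 copy. In the 101 bases around each summit, every 50-mer was unique as well for all 6 summits, and every 36-mer for 5 of them. At the RN7SL1 summit, 52 of 66 36-mers occurred once, and the others had up to 98 copies. Whether these repeated 36-mers relate to the low fold enrichment of the RN7SL1 peak was not tested.

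The recovered background is a further measure, since sequence with more copies in the cells than in the reference collects more Input reads. At the 6 summits it was 1.21 to 1.75 times the floor, lowest at RN7SL2 upstream and highest at RN7SL2 downstream. The median over all peaks was 1.14 times the floor, and 84.2% of all peaks had a lower background than the highest of the 6. The background reached 2 times the floor at 0 of the 6 summits and at 8.37% of all. It is given for summits alone and may draw on Input from the sequence around them. No separate value was thus available for the transcribed parts of the 5 genes or for RPPH1.

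**Figure D2:**
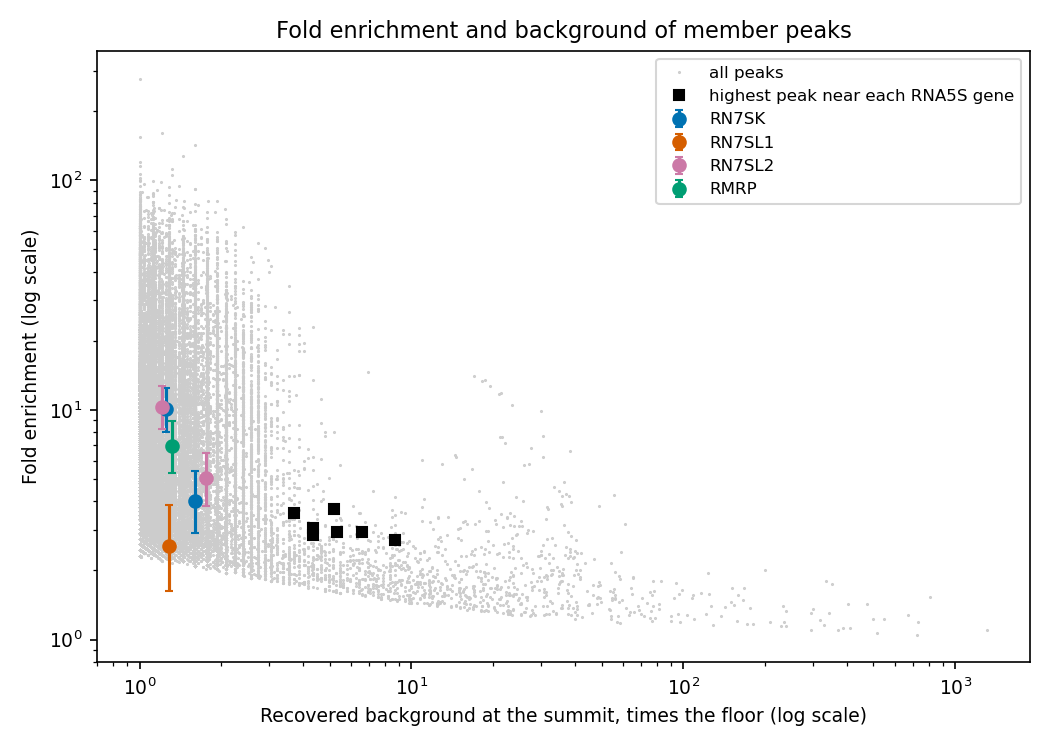
Fold enrichment against the recovered background in multiples of the floor, both on log scales, for all peaks (grey), the 6 assigned peaks (coloured by gene, bars give the range from the exact Poisson interval of the fragment number) and the highest peak near each RNA5S gene (black). The assigned peaks lie at 1.21 to 1.75 times the floor, and the black squares lie to the right of all of them.

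Among other genes of RNA polymerase III, the 5S genes stood apart by their background. The 17 RNA5S genes, which encode the 5S ribosomal RNA in a tandem array on chromosome 1, all had a summit within 5 kb, from 23 peaks that neighbouring genes shared. Their background was 3.70 to 9.63 times the floor, above that of every peak of the 5 genes, and their fold enrichment was 1.67 to 3.69. The peak with the highest fold enrichment, from 228608712 to 228610681, had 116 fragments, more than any of the 6, over a background of 30.7. With these counts the fold enrichment was 3.69, lower than at 5 of the 6.

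Of the other genes with upstream promoters, 9 of 10 were found by symbol, and 5 of these had a summit within 5 kb. RNY4, which encodes a Y RNA, had the highest fold enrichment, 40.3, at a summit 3618 bp after the gene start. RNU6-1, a gene of U6 small nuclear RNA, had a fold enrichment of 20.9 at 3454 bp after its start. RNU6ATAC, of the minor spliceosome, RNU6-2 and RNU6-9 had fold enrichments of 3.28, 2.90 and 2.79. Their summits lay 631 bp after, 4133 bp before and 4074 bp after the starts, and 0 of the 9 genes had a summit on the gene.

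Among the genes with internal promoters other than 5S, 4 of 5 had a summit within 5 kb. BCYRN1, which encodes the BC200 RNA, itself derived from an Alu element, had a summit 43 bp before its start with 168 fragments, and its fold enrichment was 21.7. This peak covered the whole gene. VTRNA2-1, VTRNA1-2 and VTRNA1-1, grouped by their vault RNA symbols only, had fold enrichments of 17.2, 10.2 and 3.98. Their summits lay 2026 bp before, 1433 bp after and 1392 bp after their starts. At the latter pair the background was 2.25 and 2.09 times the floor.

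RNA polymerase II small nuclear RNA genes, whose promoters resemble those of RN7SK, RMRP and RPPH1, had a summit within 5 kb in 10 of 16 cases. In 0 cases it lay on the gene, beside 0.855% of all short genes, although the peak near RNU1-1 overlapped that gene. RNU7-1, of the U7 RNA that acts in histone mRNA processing, had the highest fold enrichment, 20.6, at 934 bp after the start. RNU5A-1, RNU4ATAC, RNU5E-1, RNU1-1 and RNU5B-1 followed with 6.23, 4.50, 3.87, 3.80 and 3.41. The median of the highest fold enrichment per gene was 3.60 for this list, 3.28 for the other genes with upstream promoters and 8.49 for the 4 of the 5 genes that had a peak. It was 13.7 for the 4 genes with a summit among BCYRN1 and the VTRNA symbols, and 3.05 for the 5S genes. For annotated copies of RN7SK and RN7SL it was 7.13 and 7.36. With 4 to 10 genes with a summit in the lists other than the 5S genes and the copies, these medians are descriptions.

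**Figure D3:**
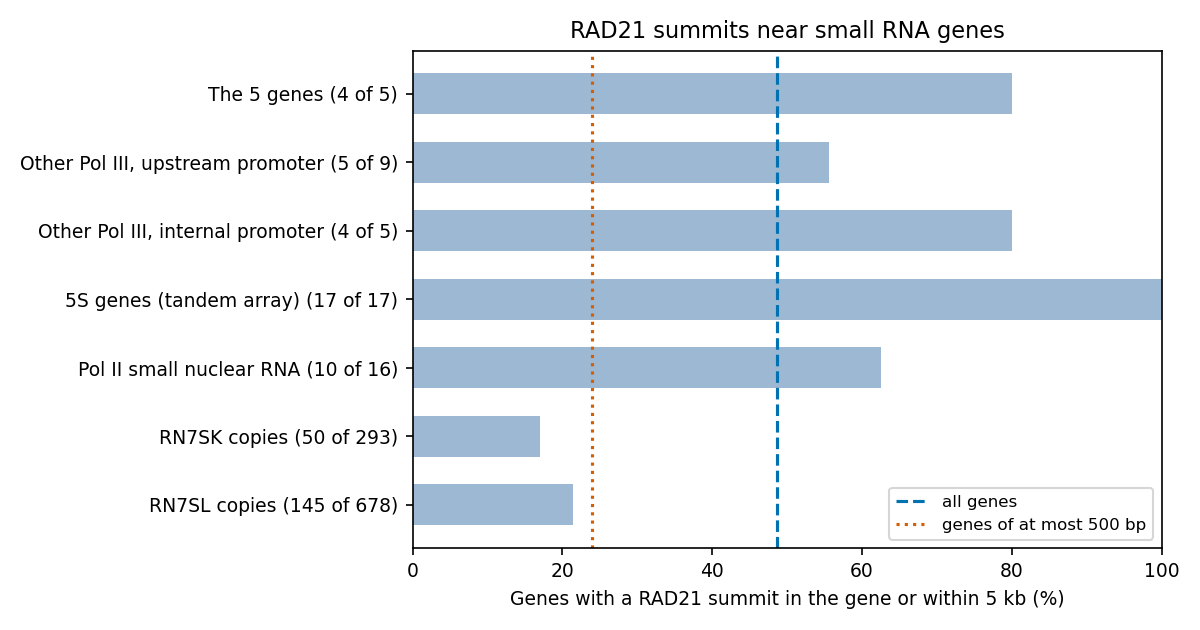
Share of genes with a RAD21 summit in the gene or within 5 kb, in percent, for the 5 genes and the lists set beside them. The dashed line is the share of all genes, 48.7%, and the dotted line that of genes of at most 500 bp, 23.9%. The copies of RN7SK and RN7SL fall below both lines, at 17.1% and 21.4%.

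Annotated copies of these RNAs were counted by the same rule. Of 293 RN7SK copies, 50 (17.1%) had a summit within 5 kb and 1 had it on the copy. Of 678 RN7SL copies, RN7SL3 among them, 145 (21.4%) had a summit within 5 kb and 1 had it on the copy. Both shares lie beside 23.9% for all short genes, and no test was made. The single RMRP copy had none, and both annotated RPPH1 copies had a summit, with fold enrichments of up to 5.98.

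The 250 bases before and 50 bases after each gene start were searched on both strands for elements of these promoters. RMRP held the TATA box as TATAAA at −33 to −28 and the octamer ATGCAAAT, on the opposite strand, at −217 to −210. RPPH1 held the octamer on the opposite strand at −101 to −94 and the cyclic AMP response element TGACGTCA at −221 to −214, and RN7SL1 held TGACGTCA at −51 to −44. The GC box GGGCGG was found at RN7SL2, RMRP and RPPH1. Over all gene starts, the share with TATAAA was 17.1%, with ATGCAAAT 2.28%, with TGACGTCA 1.09% and with GGGCGG 27.3%. The octamer was also found near a summit, on the opposite strand 33 to 40 bp before that of the RN7SL2 upstream peak, as it was within 50 bp of 0.295% of all summits. The RMRP peak held a GC box 41 to 46 bp before its summit, as did 9.15% of all peaks within 50 bp. RPPH1, the gene with no RAD21 summit in its window, held the octamer, TGACGTCA and GGGCGG, the last at −1 to 5 across its start. RMRP held the octamer, TATAAA and GGGCGG. Whether these elements relate to RAD21 peaks was not tested.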

How the data were processed

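RAD21 ChIP-seq of untreated wild-type HCT116 cells (1 library) was analysed. The authors trimmed the reads with Trimmomatic 0.39, aligned them with Bowtie2 2.5.3 to GRCh38, removed duplicates with Picard and called peaks with MACS2 2.2.9.1 against Input (per the labels and the methods text, q-value of 0.05). The methods text names neither the Input library, of which the labels list only that of the auxin-treated clone, nor a mapping quality filter for the peak calling. The deposited values are the fold enrichment (a ratio), −log10 p and −log10 q at each summit, and a score, which was not used. Peak starts, ends and summit offsets were deposited as 0-based positions and are given 1-based.

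The fold enrichment in MACS2 has 1 added above and below the line and its p-value is a Poisson tail, from which ChIP fragments and background at each summit were solved. The fragment number was whole within 0.05 for all but 14 of 56853 peaks, and the procedure was tested on simulated data. The floor of 5.90 with a fragment length of 222 bp, the narrowest peak, corresponds to about 74600000 ChIP fragments, an inferred depth. Distances are signed by the direction of the gene. Sequences were read from the GRCh38 reference, and some are not reported here. The members and the gene lists were chosen with earlier results of these data known. The genes named were the 5, their nearest protein-coding starts, starts within 1 kb of a summit, and up to 8 per list with the highest fold enrichment. RN7SL3, FBXO9, the mismatch counts for CTCF and the share for opposite starts were chosen after values were seen. RNY5 was not found by its symbol. Alternatives concerned the q-value, the window, the assignment by interval or gene start, a fold enrichment of at least 2, a background below 2 times the floor, ranking and the length of the matched sequence. Tools were biopython 1.88, numba 0.67.0, matplotlib 3.10.9, pandas 2.3.3, numpy 2.4.6 and scipy 1.17.1 under Python 3.11.15.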

Additional observations from a re-analysis of the deposited data

How the results depend on the processing

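No paired analysis was possible because a single library without replicate numbers was used. RAD21 peaks were assigned to 3 to 4 of the 5 genes, and 4 to 8 peaks to the genes, under the alternatives run. RN7SL1 lost its peak at a q-value of 0.001 and of 1e-05 and within 1 kb, and RPPH1 had no peak under any of them, the window of 10 kb included. At a q-value of 1e-05 the nearest summit of RN7SL1 was 34444 bp downstream of its start, in place of 1263 bp upstream. The share of all genes with a summit within 5 kb was 48.7%, and became 43.4% for a q-value of 1e-05, 36.6% within 1 kb, 23.9% for genes of at most 500 bp and 46.9% once peaks with 2 times the floor or more were left out. Of 62 recomputed values, 46 stayed within their limits (a factor of 1.5 for counts). Ranked by fragments, the downstream peaks of RN7SK and RN7SL2 exceeded 42.1% and 55.6% of all peaks, in place of 33.5% and 45.2%. At this depth fewer than 15 fragments gave no peak at the floor.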
